A study of Rattus norvegicus with 15 samples.

Results

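The genes described here are 5 that mark oligodendrocyte precursor cells: Vcan, Sox6, Gpr17, Pdgfra and Cspg4. Each was represented by the probe set that carries its symbol alone on the platform's annotation, and all 5 genes were found, with 1 probe set each, among 14497 genes with a single symbol. All 5 also passed the filter on low values that left 11778 genes for testing. The tissue was the nucleus accumbens of male Sprague-Dawley rats, profiled on gene expression arrays. The accumbens, in the ventral striatum, takes part in reward and drug seeking, and the series addresses how cocaine craving incubates over withdrawal. There were 15 arrays, 3 in each of 5 groups, and it is unstated in the labels whether RNA was pooled across rats. P-values therefore reflect the spread among these samples alone, which may be technical, and the number of arrays limits the precision. Rats of every group were trained to self-administer through a jugular catheter for 6 hours a day over 10 days. The saline group (Sal) received saline in place of cocaine, and its labels give neither a withdrawal time nor a test. The other groups received cocaine at 0.75 mg/kg per infusion. Group 1W was then withdrawn for 1 day and group 30W for 30 days. After 1 day (1C) or 30 days (30C) of withdrawal, the other cocaine rats had an extinction test, in which cue-induced seeking of cocaine was scored. Ages are not given in the labels. No saline group is labelled with a withdrawal time. Differences between 30 and 1 day of withdrawal therefore cannot be told apart from differences in age or in time since training.

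Oligodendrocyte precursors are glial cells that remain in the adult brain, keep the ability to divide, and differentiate into the oligodendrocytes that make myelin. Their known markers span several roles. Pdgfra encodes the receptor through which platelet-derived growth factor A drives their survival and division. Cspg4 encodes the transmembrane proteoglycan NG2, and Vcan encodes versican, a secreted chondroitin sulphate proteoglycan of the hyaluronan-binding lectican family. Sox6 is a SoxD transcription factor that holds precursors in the undifferentiated state. Gpr17 is a G protein-coupled receptor that peaks in precursors already committed to differentiation and is lost as they mature. Some of these genes are known outside the lineage as well: Cspg4 in pericytes, Pdgfra in fibroblasts and Sox6 in interneurons.

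Vcan, Sox6 and Gpr17 were chosen by their lower values in 30W than in 1W in an earlier look at these arrays, and Pdgfra and Cspg4 were added as markers of the same cells. For that reason the members' values in that comparison are given as a description, with no test. The difference of the 30C and 1C means uses none of those 6 arrays, while its SE, interval and p rest on a spread pooled over all 15 arrays. Comparisons of 1C with 1W, of 30C with 30W, and of 1W or 30W with Sal each share 3 arrays with it.

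The upstream sequences of Vcan, Sox6 and Cspg4 are shown because Vcan had low means in both 30 day groups, while Sox6 and Cspg4 had their lowest mean in 30W and higher values in 30C. They are the 250 bases before the annotated start, from RefSeq on build GRCr8, written 5′ to 3′ on the gene's strand. Capitals mark the SOX core ACAAT and the GC box GGGCGG on either strand. Vcan lies at chr2:22595956-22596205 on the minus strand, and this is the first of 2 starts listed for it. Sox6 lies at chr1:179665372-179665621 on the minus strand and Cspg4 at chr8:66160692-66160941 on the plus strand.
Vcan: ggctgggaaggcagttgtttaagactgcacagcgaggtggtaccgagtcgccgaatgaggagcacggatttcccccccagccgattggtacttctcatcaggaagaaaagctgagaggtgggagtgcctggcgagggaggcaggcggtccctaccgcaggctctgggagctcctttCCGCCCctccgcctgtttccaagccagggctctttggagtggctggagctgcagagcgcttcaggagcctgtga
Sox6: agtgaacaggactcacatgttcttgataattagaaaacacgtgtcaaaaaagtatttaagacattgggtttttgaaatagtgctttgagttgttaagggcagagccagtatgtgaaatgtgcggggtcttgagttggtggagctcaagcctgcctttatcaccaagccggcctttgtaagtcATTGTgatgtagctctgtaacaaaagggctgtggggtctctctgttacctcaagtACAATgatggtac
Cspg4: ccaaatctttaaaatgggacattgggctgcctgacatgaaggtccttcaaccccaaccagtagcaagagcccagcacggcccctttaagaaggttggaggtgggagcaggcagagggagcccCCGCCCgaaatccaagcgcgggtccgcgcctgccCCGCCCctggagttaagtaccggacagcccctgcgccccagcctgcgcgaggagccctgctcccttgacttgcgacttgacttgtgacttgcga
Of these genes, Sox6 held the SOX core at 2 places and Vcan and Cspg4 at 0, against 29.6% of 27457 promoters of that length with at least 1. The GC box stood once upstream of this Vcan start, at 2 places in Cspg4 and at 0 in Sox6, against 32.4% of promoters with at least 1. The windows of Gpr17 and Pdgfra held 0 of either motif. The longer SOX core ACAAAG, found in 16% of promoters, stood once in Sox6 and in none of the other windows. The E-boxes CAGCTG and CATCTG and the TATA box TATAAA were searched too, on both strands, and were found in 0 of the 5 genes' windows, against 11.9%, 13.7% and 13.1% of promoters. G and C made up 61.6% of the Vcan window, 62% of the Cspg4 window and 42.8% of the Sox6 window, and the median over all promoters was 52%. These matches are descriptions of letters in a short window.

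The values are RMA log2 intensities, on which 1 unit is a doubling, and the lowest correlation between any pair of arrays was 0.9929. Markers of medium spiny neurons, the principal neurons of the region, were high on every array, with Ppp1r1b at or above the 98.6th percentile and Penk at or above the 99.4th percentile of all probe sets. The lowest percentile of Drd2 was 97.2, that of Adora2a 95.7 and that of Drd1 86.7. Arrays differed in cortical neuron markers: the mean deviation of 8 such genes was lowest, at -1.37, on Sal replicate 1 and highest, at 1.04, on 30C replicate 1, with Sal replicate 3 at 0.77. The 25th percentile of an array's values also followed withdrawal time, at 5.48 to 5.51 over the 1W and 1C arrays and 5.53 to 5.59 over the 30W and 30C arrays. On the Sal arrays it was 5.51 to 5.57. The part of these array differences in the results was not tested beyond alternative fits. Values with a cortical score in the model and without each array are given where they matter. In 30C against 1C Vcan was at -0.278 with arrays centred on the median and -0.243 with further quantile normalization, against -0.249 in the main fit. The tissue is bulk, so fewer precursor cells, less RNA per cell and a different share of other cells cannot be told apart.

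Vcan was low on every array taken after 30 days of withdrawal. At 1 day its level was 8.36, 8.37 and 8.26 in group 1W and 8.32, 8.36 and 8.25 in group 1C. At 30 days the 30W values were 8.04, 8.13 and 8.14, and those of 30C were 8.07, 7.93 and 8.18. Saline rats lay at 8.31, 8.30 and 8.21, so all 6 of the 30 day arrays were below all 6 of the 1 day arrays and below all 3 Sal arrays. Of all genes tested, 84 (0.713%) had all 6 of the 30 day arrays below the 6 of 1 day, and 38 (0.323%) had them all above. The 3 arrays of 30W and the 3 of 1W in this separation are those that chose Vcan, so the share of all genes is given as background and nothing is read from it. In order of the group means, 1W, 1C and Sal differed by less than their SD, as did 30W and 30C, and the step between these sets was 0.17 from Sal to 30W, where the larger SD was 0.06.

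Cspg4, the other proteoglycan, did not show this pattern. Its level was 8.07, 8.32 and 8.14 in group 1W, 8.13, 8.22 and 8.15 in group 1C and 8.17, 8.25 and 8.06 in Sal. In group 30W it was 7.94, 8.12 and 8.11, and in group 30C it was 8.15, 8.29 and 8.22. The group with the highest mean was thus 30C, at 8.22 ± 0.07 (SD, n = 3), and the lowest 30W, at 8.06 ± 0.10 (SD, n = 3). Between neighbours in the order 30C, 1W, 1C and Sal the gaps were at most 0.04, each below the SD, and the 30W arrays overlapped Sal.

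Pdgfra, the growth factor receptor, had lower means in 30W and 30C than in 1W and 1C, by less than Vcan. At 1 day it stood at 9.13, 8.99 and 8.95 in group 1W and at 9.07, 9.03 and 8.996 in group 1C. At 30 days group 30W had 8.81, 8.95 and 8.88, and group 30C had 8.94, 8.79 and 8.93. Of the 6 arrays at 30 days 5 were below the lowest at 1 day, and 30W replicate 2 and 1W replicate 3 were level at 8.95. The share of all genes with such a count was not computed, so nothing is read from it. Of these 30 day arrays 0 were below the lowest Sal array. The Sal arrays were widely spread, at 9.04, 9.03 and 8.76, and the lowest Pdgfra value of all 15 arrays was that of Sal replicate 3. No neighbours in the order of the 5 group means differed by more than their SD.

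Gpr17, the receptor of committed precursors, was high and even on the 1W arrays, at 9.73, 9.83 and 9.80. It was also even in 30W, with 9.51, 9.56 and 9.53, and in 30C, with 9.42, 9.44 and 9.48. Group 1C was spread, with 9.77, 9.48 and 9.56, and so was Sal, with 9.81, 9.71 and 9.45. The 30 day arrays therefore overlapped both 1C replicate 2 and Sal replicate 3. The 30C arrays lay below the 30W arrays without overlap, by 0.09 in the means.

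Sox6, the transcription factor, had its lowest mean in 30W, and its 30C arrays lay above the 30W arrays. Its 30W values were 7.52, 7.47 and 7.62, and its 30C values 7.77, 7.64 and 7.68. Group 1W had 7.79, 7.84 and 7.66, group 1C had 7.85, 7.68 and 7.65, and Sal had 7.80, 7.67 and 7.54. The means of 1W, 1C, 30C and Sal followed each other in steps of at most 0.04, each below the SD. Over the 15 arrays the whole range of each gene was small, between 1.29-fold for Pdgfra and 1.35-fold for Vcan.

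**Figure D1:**
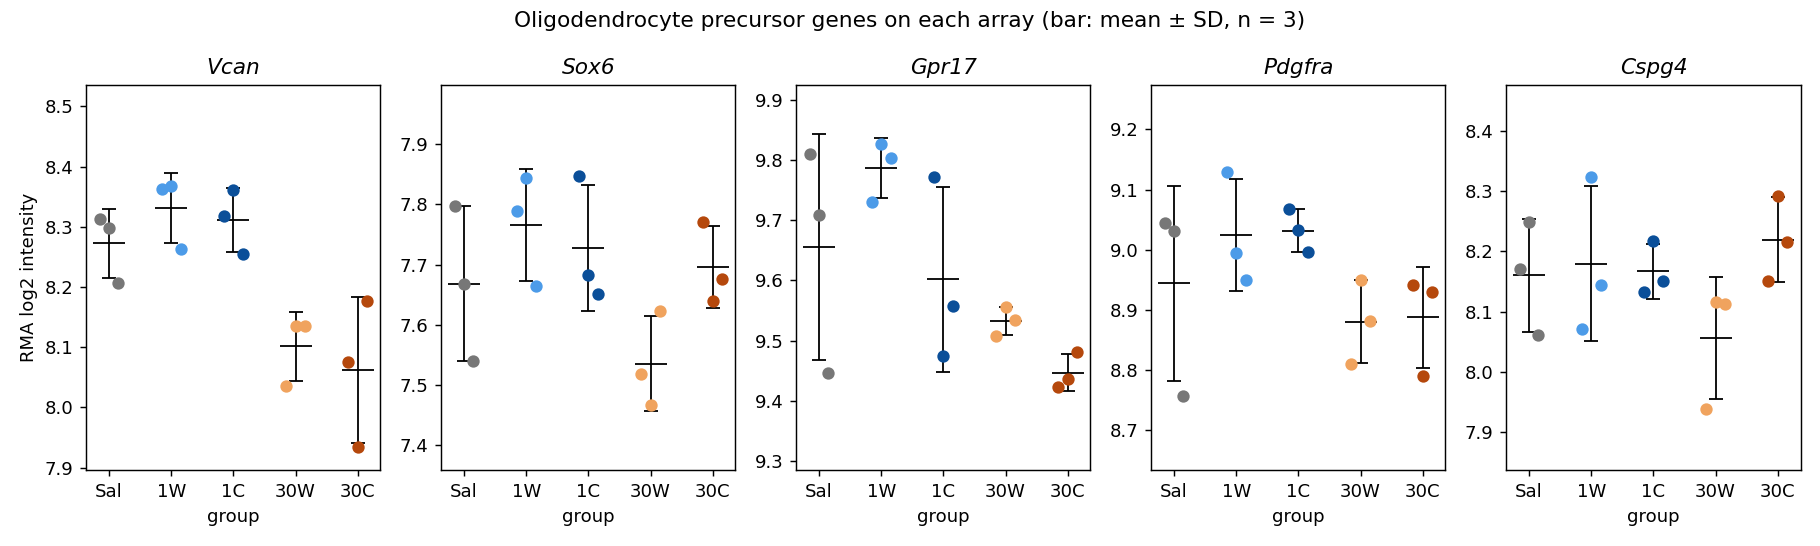
RMA log2 intensity (vertical axes, each spanning the same number of log2 units) of the 5 genes on each array, by group; points are arrays in order of replicate number and bars the mean ± SD of 3 arrays. The 6 Vcan arrays of 30W and 30C, at 7.93 to 8.18, lie below the others, while Cspg4 is highest on average in 30C.

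Withdrawal without a test, 30W against 1W, is the comparison that chose Vcan, Sox6 and Gpr17. Their log2 differences were -0.23 (SE 0.06), -0.23 (SE 0.08) and -0.25 (SE 0.09), which on the linear scale are changes of -14.7%, -14.7% and -16.1%. For each of these 3 genes the 30W arrays lay wholly below the 1W arrays, as they did for 10.5% of all genes tested. Pdgfra and Cspg4 were at -0.14 (SE 0.08) and -0.12 (SE 0.07), with overlap, so that all 5 members were below 0, as were 60.3% of all genes. Without 1W replicate 2 the Cspg4 difference was -0.05, and without 30W replicate 1 it was -0.07. The Pdgfra difference was -0.09 without 1W replicate 1. Over all genes limma called 0 (0%), with 1188 (10.1%) at an unadjusted p under 0.05, and the median log2 difference was -0.02.

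Withdrawal followed by the test, 30C against 1C, asks about the same interval in other arrays. Vcan was lower in 30C by 0.25 on the log2 scale, from 8.31 ± 0.05 (SD, n = 3) to 8.06 ± 0.12 (SD, n = 3), a difference with a 95% confidence interval from -0.38 to -0.12. Its unadjusted p was 0.00135 in limma and its adjusted p 0.608 over all genes, so it did not pass. The difference was -0.31 without 30C replicate 3 and -0.19 without 30C replicate 2, and with the cortical score in the model it was -0.25. Over these and the other alternatives the adjusted p ran from 0.356 to 1.

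The other members differed less in 30C against 1C. Gpr17 was at -0.15 (SE 0.09, adjusted p = 0.903 in limma) and Pdgfra at -0.14 (SE 0.08, adjusted p = 0.899). Without 1C replicate 1, the array with the high Gpr17 value, the Gpr17 difference was -0.07. Pdgfra, like Vcan, had 30C arrays wholly below the 1C arrays, which held for 5.87% of all genes. Sox6 was at -0.03 (SE 0.08) with an interval from -0.20 to 0.13, and Cspg4 at 0.05 (SE 0.07) with an interval from -0.10 to 0.21. The intervals of Gpr17, from -0.34 to 0.03, and of Pdgfra, from -0.31 to 0.02, included 0 as well. The intervals of Gpr17, Pdgfra, Sox6 and Cspg4 thus leave room for differences of either sign. With Cspg4 the exception, 4 of the 5 members were below 0, as were 55.7% of all genes. In limma 0 genes (0%) passed over all genes, and 646 (5.48%) had an unadjusted p under 0.05, Vcan alone among the members.

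**Figure D2:**
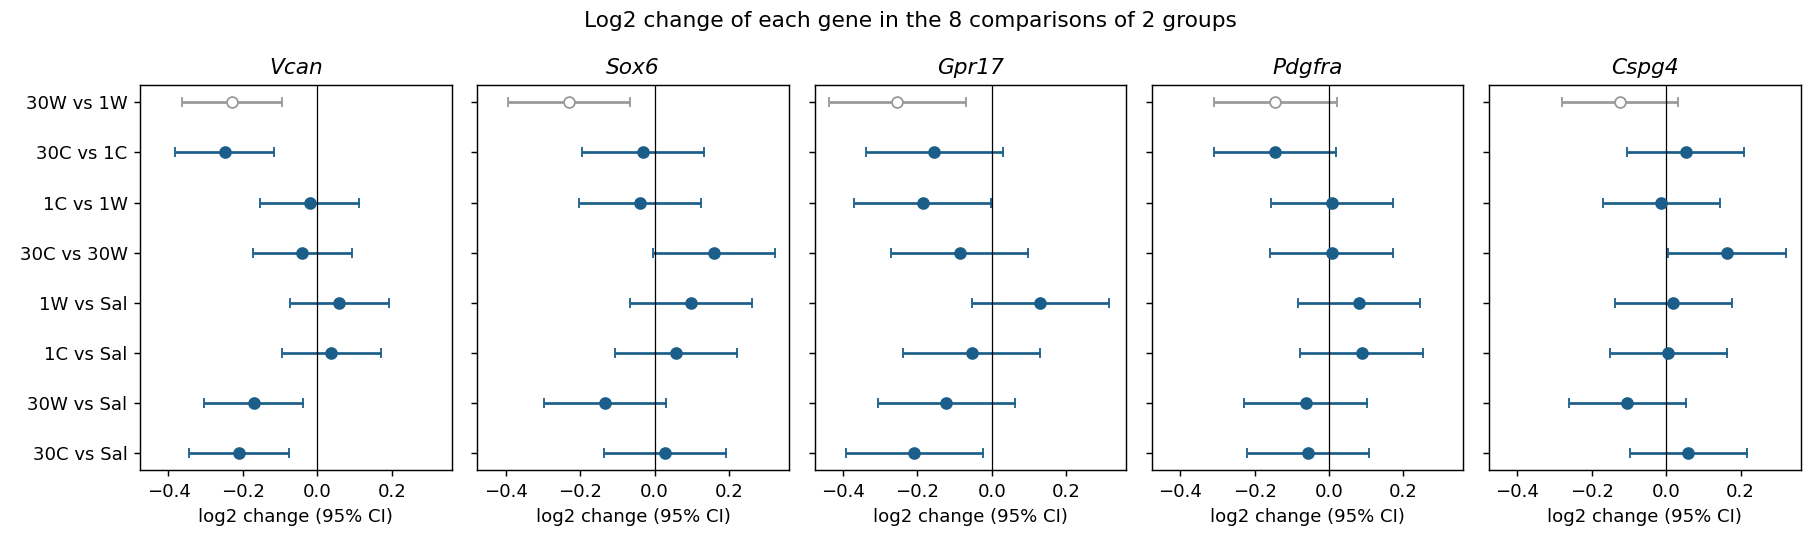
Log2 change of each gene (horizontal axis) in 8 comparisons of 2 groups; points are limma estimates and bars 95% confidence intervals over 3 arrays a group, with open grey points for the comparison that chose members. Vcan is at -0.23 in 30W against 1W and -0.25 in 30C against 1C, while Sox6 goes from -0.23 to -0.03 and Cspg4 from -0.12 to 0.05.

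At 30 days, 30C and 30W differed most in Cspg4 and Sox6 among the members. Cspg4 was higher in 30C than in 30W by 0.16 (SE 0.07, adjusted p = 0.999 in limma) and Sox6 by 0.16 (SE 0.08, given with no test), each with the groups not overlapping, as for 4.51% of all genes. Gpr17 was lower by 0.09 on the log2 scale (a change of -0.09, SE 0.09), also without overlap, as for 3.87% of genes. Vcan and Pdgfra were at -0.04 (SE 0.06) and 0.01 (SE 0.08). Limma called 0 genes (0%), and of the 463 (3.93%) at an unadjusted p under 0.05 Cspg4 was the 1 member. The 30W arrays entered the choice of Sox6, Gpr17 and Vcan as low, and a comparison of these genes with them starts from that choice.

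At 1 day the largest member difference was that of Gpr17. Gpr17 was chosen for 1W values above those of 30W, so its difference of 1C from 1W, -0.19 (SE 0.09), is given with no test, with 1C replicate 1 inside the 1W range and the other 1C arrays below it. Vcan, Sox6, Pdgfra and Cspg4 lay between -0.04 and 0.01, each with overlap. Over all genes 0 (0%) passed in limma and 474 (4.02%) had an unadjusted p under 0.05. Averaged over both withdrawal times, a contrast orthogonal to that of 30W with 1W, Gpr17 was at -0.14 (SE 0.06, adjusted p = 0.999), Cspg4 at 0.08 (SE 0.05), Sox6 at 0.06 (SE 0.05), Vcan at -0.03 (SE 0.04) and Pdgfra at 0.01 (SE 0.05). In that average 0 genes passed in limma (0%) and 571 (4.85%) had an unadjusted p under 0.05. Whether the effect of the test differed between 1 and 30 days was not tested, since that difference contains the comparison of 30W with 1W.

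Against the saline rats, Vcan was low in both 30 day groups, and in the 1 day groups it overlapped Sal. The Vcan difference was -0.17 (SE 0.06) in 30W, given with no test because the 30W arrays entered its choice. In 30C it was -0.21 (SE 0.06, adjusted p = 0.759 in limma). In both the arrays lay wholly below the Sal arrays, which 7.19% of genes did in 30W, where nothing is read from it, and 4.11% in 30C. In 1W and 1C it was 0.06 (SE 0.06) and 0.04 (SE 0.06). These 4 comparisons share the same 3 Sal arrays.

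The remaining members overlapped Sal in every group. Gpr17 was at 0.13 (SE 0.09) in 1W, -0.05 (SE 0.09) in 1C, -0.12 (SE 0.09) in 30W and -0.21 (SE 0.09, adjusted p = 0.929 in limma) in 30C. The Gpr17 difference in 30W was -0.05 without Sal replicate 1 and -0.23 without Sal replicate 3. Pdgfra lay between -0.06 and 0.09 in the 4 groups, Sox6 between -0.13 and 0.10 and Cspg4 between -0.10 and 0.06. Over all genes limma passed 0 (0%) in each group, with 573 (4.87%) in 1W, 404 (3.43%) in 1C, 895 (7.6%) in 30W and 596 (5.06%) in 30C at an unadjusted p under 0.05. With the 4 cocaine groups averaged against Sal, the 5 members lay between -0.07 for Vcan and 0.01, and 0 genes passed (0%), with 510 (4.33%) at an unadjusted p under 0.05.

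Sal replicate 3 was the array on which the members were lowest among the saline rats. It held the lowest Sal value of all 5 genes, and its mean deviation over the 5 was -0.12, against 0.11 and 0.07 on Sal replicates 1 and 2. Its cortical score was 0.77, and that of Sal replicate 1 was -1.37. Without Sal replicate 3, the Pdgfra difference of 1W from Sal went from 0.08 to -0.01 and that of Gpr17 in 30C from -0.21 to -0.31.

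The rest of the lineage was read from lists of known markers. Of 20 further precursor markers 13 were measured, and in 30C against 1C 0 passed in limma, with 10 below 0 and 3 above. Their median was -0.04, against -0.01 over all genes. Olig2 was among the 7 markers for which no probe set was named here. Cacng4, an AMPA receptor auxiliary subunit, was at -0.27 (SE 0.13), and Cspg5, the proteoglycan neuroglycan C, was at -0.12 (SE 0.05), and neither passed. Sox10, the transcription factor of the whole oligodendrocyte lineage, was at 0.03 (SE 0.07). In 30W against 1W Sox10 was at -0.05 (SE 0.07), and the list had 8 members below 0 and 5 above with 0 passing.

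Markers of committed precursors and newly formed oligodendrocytes, the stage at which Gpr17 peaks, were below 0 in 7 of 10 in 30C against 1C and in 10 of 10 in 30W against 1W, with 0 passing in limma in either. Their medians were -0.05 and -0.15. Against Sal they were above 0 in 10 of 10 in 1W (median 0.106), 5 of 10 in 1C (-0.008) and 6 of 10 in 30W (0.025). In 30C against Sal 9 of 10 were below 0 (median -0.080), and 0 passed in limma in each. Enpp6, a choline phosphodiesterase of newly formed oligodendrocytes, was at -0.36 (SE 0.17, adjusted p = 0.899) in 30C against 1C. Its arrays were at 8.48, 8.31 and 8.14 in 1C and 8.07, 7.88 and 7.91 in 30C, without overlap. The 30C arrays lay wholly below the 1C arrays for 5.87% of all genes. Enpp6 and Bmp4 were named for the largest differences of the list in 30C against 1C, so nothing is read from their size or separation there. The Sal arrays of Enpp6, from 7.66 to 8.39, overlapped both groups. Bmp4, a secreted bone morphogenetic protein, was at -0.18 (SE 0.09) in 30C against 1C and -0.32 (SE 0.09, adjusted p = 0.373) in 30W against 1W.

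Mature oligodendrocyte markers lay below 0 in 30W against 1W and on both sides of 0 in 30C against 1C. In 30W against 1W 17 of 18 were below 0, with a median of -0.14, and in 30C against 1C 9 of 18 were, with a median of -0.01 and 0 passing in limma in either. Fa2h, which makes the hydroxylated lipids of myelin, was at -0.29 (SE 0.07) and -0.15 (SE 0.07). Hapln2, a hyaluronan link protein of nodes of Ranvier, was at -0.002 (SE 0.09) and 0.14 (SE 0.09), and the myelin protein gene Mbp at -0.08 (SE 0.06) and -0.04 (SE 0.06). The difference between these 2 comparisons was not tested. Against Sal the mature markers were above 0 in 18 of 18 in 1W (median 0.105) and in 9 of 18 in 30W (median -0.008). They were below 0 in 18 of 18 in 1C (median -0.086) and in 17 of 18 in 30C (median -0.092), with 0 passing in limma in each. Relative to Sal, 1W thus lay above and 30W on both sides. In 1W against Sal this was not particular to the lineage. There, markers were above 0 in 11 of 11 for mural cells, 8 of 8 for endothelium and 12 of 12 for medium spiny neurons. They were above 0 in 12 of 13 for microglia and macrophages, 8 of 9 for interneurons and 9 of 11 for astrocytes. Fibroblast and meningeal markers were in 6 of 8, blood cell markers in 3 of 4 and cortical projection neuron markers in 2 of 8. The median over all genes was 0.012.

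**Figure D3:**
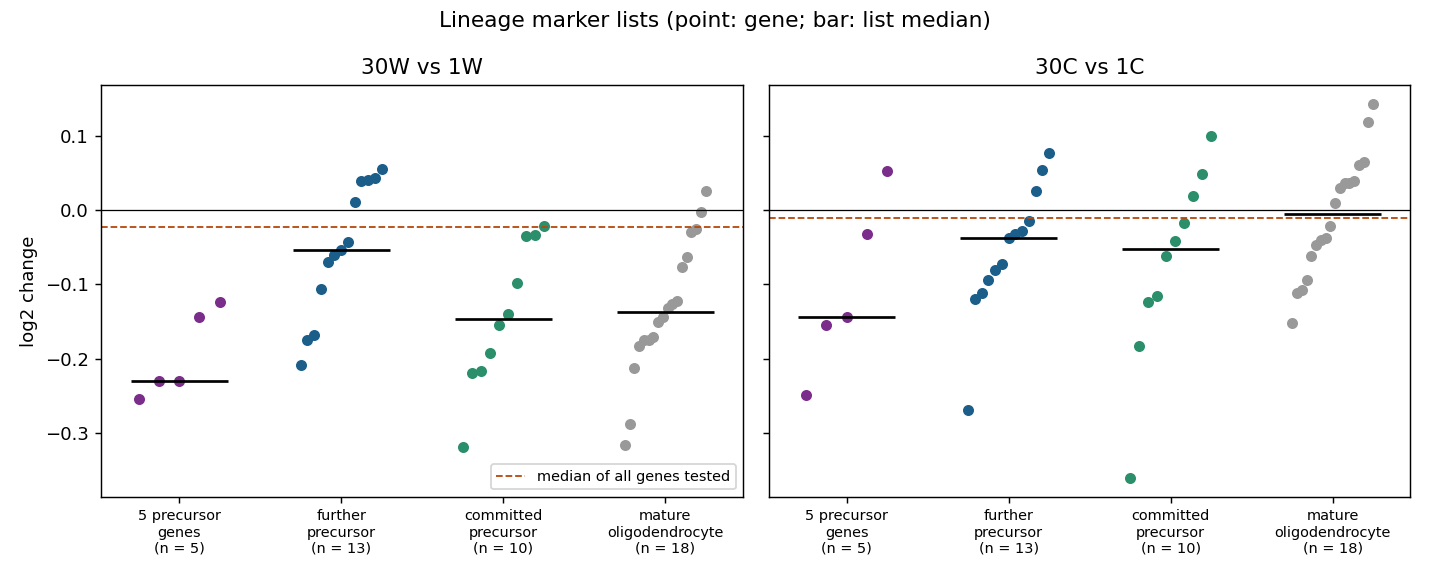
Log2 change (vertical axis) of the 5 members and of 3 lists of lineage markers in 30W against 1W (left) and 30C against 1C (right); points are genes, bars list medians and the dashed line the median of all genes tested. The mature list has its median at -0.14 on the left and -0.01 on the right, and the 5 members theirs at -0.23 and -0.14.

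Versican belongs to the lecticans, which bind hyaluronan in the matrix between cells. Of the 14 measured lecticans, partners and proteases 7 were below 0 in 30C against 1C, with a median of -0.03 and 0 passing in limma. Bcan, the brain lectican brevican, was at -0.19 (SE 0.08, adjusted p = 0.833), with arrays at 10.36, 10.08 and 10.29 in 1C and 9.93, 10.02 and 10.20 in 30C. The groups overlapped through 1C replicate 2. Adamts15, a versican-cleaving protease, was higher by 0.20 (SE 0.08), and Hapln4, a link protein, by 0.21 (SE 0.14), and neither passed. Adamts15 values were low, at 6.05 to 6.46, where the 25th percentiles of the arrays were 5.48 to 5.59.

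Around Pdgfra, the 4 PDGF ligand genes and the second receptor were all measured, and 0 of the 5 passed in limma in any of the 10 comparisons. Pdgfa, the ligand of Pdgfra, differed by 0.05 (SE 0.09) in 30C against 1C and -0.04 (SE 0.09) in 30W against 1W. Pdgfrb, the receptor of pericytes, was at -0.17 (SE 0.08) and -0.13 (SE 0.08). Around Sox6, 7 of 9 SOX genes were measured and 0 passed in limma in 30C against 1C, where 3 were below 0. Sox8 and Sox4, a lineage factor and a factor of immature cells, were at -0.11 (SE 0.10) and 0.10 (SE 0.09). Among 8 measured P2Y and cysteinyl leukotriene receptors, the relatives of Gpr17, 6 were below 0 and 0 passed in limma. P2ry6, the UDP receptor of microglia, was at -0.18 (SE 0.06, adjusted p = 0.748) and Cysltr2 at 0.11 (SE 0.07). Cysltr2 values were low, at 5.89 to 6.23, where the 25th percentiles of the arrays were 5.48 to 5.59.

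Cell cycle genes were listed because precursors are the main dividing cells of the adult brain outside the stem cell niches. Of 18 such genes 16 had a named probe set and 13 passed the filter on low values. In 30C against 1C 6 were below 0 and 7 above, with a median of 0.002 and 0 passing in limma. Aurkb, a mitotic kinase, was at -0.40 (SE 0.16, adjusted p = 0.861 in limma), with 30C wholly below 1C, as for 5.87% of all genes. The mitotic cyclin gene Ccnb1 was at -0.17 (SE 0.09). Its values were low, at 5.82 to 6.20, where the 25th percentiles of the arrays were 5.48 to 5.59. Aurkb and Ccnb1 were named for the largest differences of the list in this comparison, so nothing is read from their size or separation there. The Aurkb values of 1C were the highest of all groups on average, at 7.01, 6.67 and 7.03, against 5.87, 6.51 and 6.12 in 1W. The 30C arrays, at 6.39, 6.56 and 6.56, lay above the 30W arrays, at 6.06, 6.17 and 6.20, and Sal was at 6.70, 6.41 and 6.08. The Aurkb difference of 1C from 1W was 0.73 (SE 0.16, adjusted p = 1 in limma), that of 30C from 30W 0.36 (SE 0.16, adjusted p = 0.999), and that of 30W from 1W -0.02 (SE 0.16). Ccnb1 was at -0.07 (SE 0.09) in 30W against 1W.

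Markers of other cell types, only some of which are known to express members, moved as follows in 30C against 1C. Mural cell markers were below 0 in 9 of 11, with a mean deviation of -0.05 to 0.07 on the 1C arrays and -0.20 to 0.02 on the 30C arrays. Fibroblast and meningeal markers were below 0 in 4 of 8, with -0.09 to 0.22 in 1C and -0.13 to 0.24 in 30C. Interneuron markers were below 0 in 3 of 9. Microglia and macrophage markers were below 0 in 12 of 13, at -0.04 to 0.10 in 1C and -0.07 to -0.02 in 30C, and medium spiny neuron markers in 12 of 12, at -0.02 to 0.17 in 1C and -0.45 to 0.13 in 30C, with the lowest on 30C replicate 1. Astrocyte markers were below 0 in 9 of 11, endothelial markers in 8 of 8 and blood cell markers in 4 of 4. In 30W against 1W, mural markers were below 0 in 11 of 11, microglia and macrophage markers in 13 of 13 and fibroblast markers in 4 of 8. There, endothelial markers were below 0 in 8 of 8, interneuron markers in 7 of 9, medium spiny neuron markers in 8 of 12, astrocyte markers in 7 of 11 and blood cell markers in 3 of 4. Cortical projection neuron markers were below 0 in 2 of 8 and above 0 in 6 of 8 in both comparisons. In limma 0 of these passed, and their part in the members' values was not tested. Without 30C replicate 1 the Vcan difference of 30C from 1C was -0.26.

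The members' profiles over the 15 arrays were alike for 4 genes and not for Cspg4. Pearson's r between pairs of Vcan, Sox6, Gpr17 and Pdgfra ran from 0.56 to 0.78, the highest for Vcan with Pdgfra (Spearman rho 0.795). With each group's mean removed, Vcan with Pdgfra remained at 0.73 and Vcan with Gpr17 went from 0.69 to 0.30. Cspg4 had r between 0.18 and 0.44 with the others. These are descriptions over arrays that share their groups, and the choice on 30W and 1W enters them.

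Outside the 5 genes, the profile most like that of Vcan was Setd2, a histone methyltransferase gene (r = 0.90 over 15 arrays, 0.82 with group means removed), followed by Eif4h and Ahcy. For Gpr17 they were Cyb5r3 (r = 0.91), Prtn3 and Ppm1g, and for Pdgfra the protease gene Adam17 (r = 0.92), Haus1 and Sord. Sox6 was nearest to Ube2e2 (r = 0.88), Xk and Smndc1, and Cspg4 to Rnf111 (r = 0.81), Sf3a1 and Spry3. Each is the highest of 11778 genes less the members and is given as a measure of likeness only. Among lineage markers, Gpr17 was nearest to Fa2h (r = 0.89), Pdgfra to Enpp6 (r = 0.81) and Sox6 to Mmp15 (r = 0.81). The median r of Gpr17 was 0.41 with the further precursor markers, 0.55 with the committed precursor markers and 0.53 with the mature markers, against 0.12 over all genes. For Cspg4 these medians were 0.18, -0.03 and -0.01, against 0.05 over all genes. Likeness to mean deviations of lists was not particular to the lineage, except for Gpr17. With the further precursor list, r was 0.67 for Vcan, 0.67 for Sox6, 0.77 for Pdgfra, 0.84 for Gpr17 and 0.235 for Cspg4. The highest r with another cell type was 0.63 for Vcan (microglia), 0.63 for Sox6 (astrocytes) and 0.75 for Pdgfra (astrocytes). It was 0.53 for Gpr17 (mural cells) and 0.27 for Cspg4 (medium spiny neurons).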

How the data were processed

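Values are the deposited log2 intensities of each probe set. The submitters' processing notes name RMA without a version as the authors' method, a procedure of background correction, quantile normalization and probe set summary. Filters and further upstream steps: not given in the sources used here. Of 28826 probe sets, the platform annotation gives 15209 a single symbol and 306 several, and 13311 are unnamed here. A gene's probe set is the one with the highest mean, and genes above the array's 30th percentile on at least 3 arrays were tested. Comparisons used limma 3.58.1 in R 4.3.3 (lmFit, eBayes) over all 15 arrays with group as the only term, two-sided, Benjamini-Hochberg adjusted over all 11778 genes within a comparison, at a threshold of 0.05. Residual degrees of freedom were 10 and prior degrees of freedom 3.44. The fit was tested on simulated data. List scores are the mean over members of each gene's deviation from its mean.

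The members, lists and tests were chosen with earlier results of these data known. Besides the members, named genes are the 2 of each lineage or pathway list with the largest difference in 30C against 1C, fixed reference genes (Sox10, Olig2, Pdgfa, Bcan, Mbp) and the 3 nearest profiles per member. Mmp15, Ppp1r1b, Penk, Drd1, Drd2 and Adora2a were named after their values were seen. Motifs were searched in RefSeq promoters of GRCr8, where all 5 members matched by symbol. Alternatives covered the filter, probe set, normalization, variance model, weights, arrays, block, covariate and threshold, and leaving out each array.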

Additional observations from a re-analysis of the deposited data

How the results depend on the processing

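Under 26 alternative settings 0 of the members' values in the 10 comparisons passed the threshold, and 1247 of 1295 values kept their direction. Many of these could not change. The filter, probe set, variance model, compared arrays, block and threshold settings leave a member's log2 difference as it was. So does leaving out an array that a comparison does not use. The count of kept directions is therefore no measure of robustness. The direction of every member in 30W against 1W, and of Vcan, Gpr17, Pdgfra and Cspg4 in 30C against 1C, was the same in all settings run. Vcan, Sox6 and Gpr17 were chosen as lower in 30W than in 1W, so nothing is read from their direction there. The remaining 48 of the 1295 values changed sign. With further quantile normalization Pdgfra was at -0.009 in 30C against 30W and Cspg4 at -0.004 in 1C against Sal. With arrays centred on the median Pdgfra was at -0.001 both in 1C against 1W and in the cocaine groups against Sal, and Sox6 at -0.002 in 30C against Sal. With array weights Cspg4 was at -0.038 in 1C against Sal and Pdgfra at -0.034 in the cocaine groups against Sal. When 1 array was left out at a time, these log2 differences took both signs. In 30C against 1C the range was Sox6 from -0.070 to 0.028. In 1C against 1W the range was Vcan from -0.054 to 0.008, Sox6 from -0.098 to 0.001, Pdgfra from -0.030 to 0.060 and Cspg4 from -0.067 to 0.059. In 30C against 30W the range was Vcan from -0.097 to 0.024 and Pdgfra from -0.028 to 0.055. In 1W against Sal the range was Pdgfra from -0.013 to 0.131 and Cspg4 from -0.052 to 0.073. In 1C against Sal the range was Sox6 from -0.006 to 0.123, Gpr17 from -0.158 to 0.023, Pdgfra from -0.006 to 0.138 and Cspg4 from -0.043 to 0.050. In 30C against Sal the range was Sox6 from -0.037 to 0.092. For the test averaged over both withdrawal times the range was Vcan from -0.059 to 0.002 and Pdgfra from -0.012 to 0.033. For the cocaine groups against Sal the range was Sox6 from -0.052 to 0.077, Gpr17 from -0.168 to 0.014, Pdgfra from -0.081 to 0.062 and Cspg4 from -0.054 to 0.039. Of all genes, none of them a member, array weights let 3 pass in 30W against 1W (Cd180, RT1-CE13 and Spata32), 2 in 30C against 1C and 1 in 30C against 30W. The cortical score as covariate let 1 pass in 30C against 1C, 1 in 30C against 30W and 2 in the averaged test (Nfil3 and Nr4a3), and a threshold of 0.1 let 1 pass in 30C against 30W. Leaving out 1 array gave 0 to 2 genes in 30C against 1C, 0 to 1 in 30W against 1W, in 1C against 1W, in 30C against 30W and in 1C against Sal, and 0 in the others; the causes were not tested. A replicate block gave the same log2 differences, with Vcan at -0.249 in 30C against 1C and 0 genes called in any comparison. Arrays that share a number had a median correlation of deviations of -0.0096 over 30 pairs, from -0.63 to 0.51, and the numbers were not taken to pair samples. The 25th percentiles of 30W and 30C were close by number: 5.551 and 5.542, 5.590 and 5.590, and 5.535 and 5.535. Whether arrays that share a number were handled together was not tested. Precision is limited by 3 arrays a group.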
